A study of Mus musculus with 8 samples.

Results

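The set described here holds 31 genes that mark cholangiocytes, the epithelial cells lining bile ducts, and the ductular epithelium that appears in injured liver. They were chosen by name from the count table, which lists 54232 genes, and all 31 were found, each in 1 row. Liver RNA was sequenced from mice aged 6 months in 2 groups. The first group is labelled as knocked out for Atp7b and is called Atp7b KO. Atp7b is the copper-transporting ATPase that exports copper into bile and whose loss causes Wilson disease in humans. The second group, WT, is labelled as wild type. Each group has 4 libraries. The labels give liver as the tissue and the genotype, and no strain, sex, diet or deleted exon. Whether 8 animals or fewer stand behind the 8 libraries is not stated, and p-values therefore reflect variation among these libraries alone, which may be technical.

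Cholangiocytes modify bile by secretin-driven chloride and bicarbonate secretion through the channel CFTR, and they carry primary cilia that sense flow. They descend from the same embryonic progenitor as hepatocytes, and Notch, TGF-beta and YAP signalling together with the factors SOX9 and SOX4 direct that progenitor to the ductal fate. In chronic injury, ducts extend into the lobule as a ductular reaction whose cells carry EPCAM, CD24, CD133 and osteopontin, and hepatocytes themselves can take on some of these genes. Many of the genes in the set belong to a wider epithelial programme of adhesion, apical sorting and membrane proteolysis that other lining epithelia share.

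Library totals were 14583961, 17883132, 16244837 and 18423836 counts in Atp7b KO replicates 1 to 4, against 11960162, 17127260, 9880253 and 27530506 counts in WT replicates 1 to 4. Levels below are CPM, each gene's counts relative to a library total scaled by TMM, a correction for composition, and 3 counts correspond to 0.129 to 0.425 CPM depending on the library. Atp7b itself was lower in Atp7b KO, at 7.83 ± 1.19 CPM against 24.5 ± 10.1 CPM in WT (SD, n = 4 each), a log2 fold change of -1.65 ± 0.32 (standard error) with an edgeR adjusted p = 0.00313. RNA counted to the gene remained in Atp7b KO, at 8.76, 8.91, 6.5 and 7.15 CPM and 609 counts in all, and counts per gene do not show which part of it these reads cover. WT replicate 3 stood apart from every other library: its second principal component score was 92.9, against -40.7 to 9.1 in the other 7, and its Atp7b level of 9.63 CPM was the lowest of the WT group, close to the highest Atp7b KO library. Values without this library are given beside results that change without it, and those without Atp7b KO replicate 4 where that library stood apart.

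Most of the ductal genes were higher in Atp7b KO liver. The tested exceptions were among those with the highest WT levels per exon length, a level that also enters the fold change. Of the 31, 28 had enough counts to be tested across all genes, and edgeR called 22 higher and 1 lower in Atp7b KO at an adjusted p under 0.05. Over all 15811 genes tested, 17.6% were called higher and 12.5% lower. The 22 were Epcam, Cd24a, Prom1, Tspan8, Plet1, Sox9, Sox4, Ehf, Elf3, Grhl2, Esrp1, Bicc1, Cftr, Pkhd1, Spp1, Muc1, Tff3, Cdh1, Ddr1, Ap1m2, St14 and Spint1. Pigr was the 1 called lower. Spint2, Mal2, Dsg2, Crb3 and Pkd2 were tested and not called, and Klf5, Sctr and Rab25 had too few counts for the test. All 22 had a log2 fold change over 1, 19 over 2 and 15 over 3, where 14.0%, 7.58% and 4.54% of all genes tested were called higher past those sizes. The median log2 fold change was 3.10 over the 28 tested, against -0.05 over all genes tested. With no filter on low counts all 31 entered, 26 were called higher and 1 lower, and the median was 3.18, where 12.4% of 34236 genes were called higher and 6.13% lower. These counts describe a list assembled with earlier results of the same libraries known and are not independent evidence of its direction.

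Every Atp7b KO library lay above every WT library for 24 of the 31 genes and below for 1, Pigr, where 18.7% and 13.4% of all genes tested separated in those directions. The groups overlapped for Spint2, Mal2, Dsg2, Crb3, Pkd2 and Sctr. Scaling mattered for all genes together: with library totals only, the median of all genes tested moved to 0.37 and the calls split into 4804 higher (30.4%) and 642 lower (4.06%), against 2775 and 1971 with TMM. Leaving the 10 most abundant genes out of the totals gave a median of 0.32 with 4468 higher (28.3%) and 746 lower (4.72%), and upper-quartile factors gave 3167 higher (20.0%) and 1424 lower (9.01%). The 22 higher calls and the lower call of Pigr held under all of these scalings. In bulk liver, fewer cells of a type and less RNA per cell cannot be told apart, so each change below is one of RNA in the tissue.

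**Figure D1:**
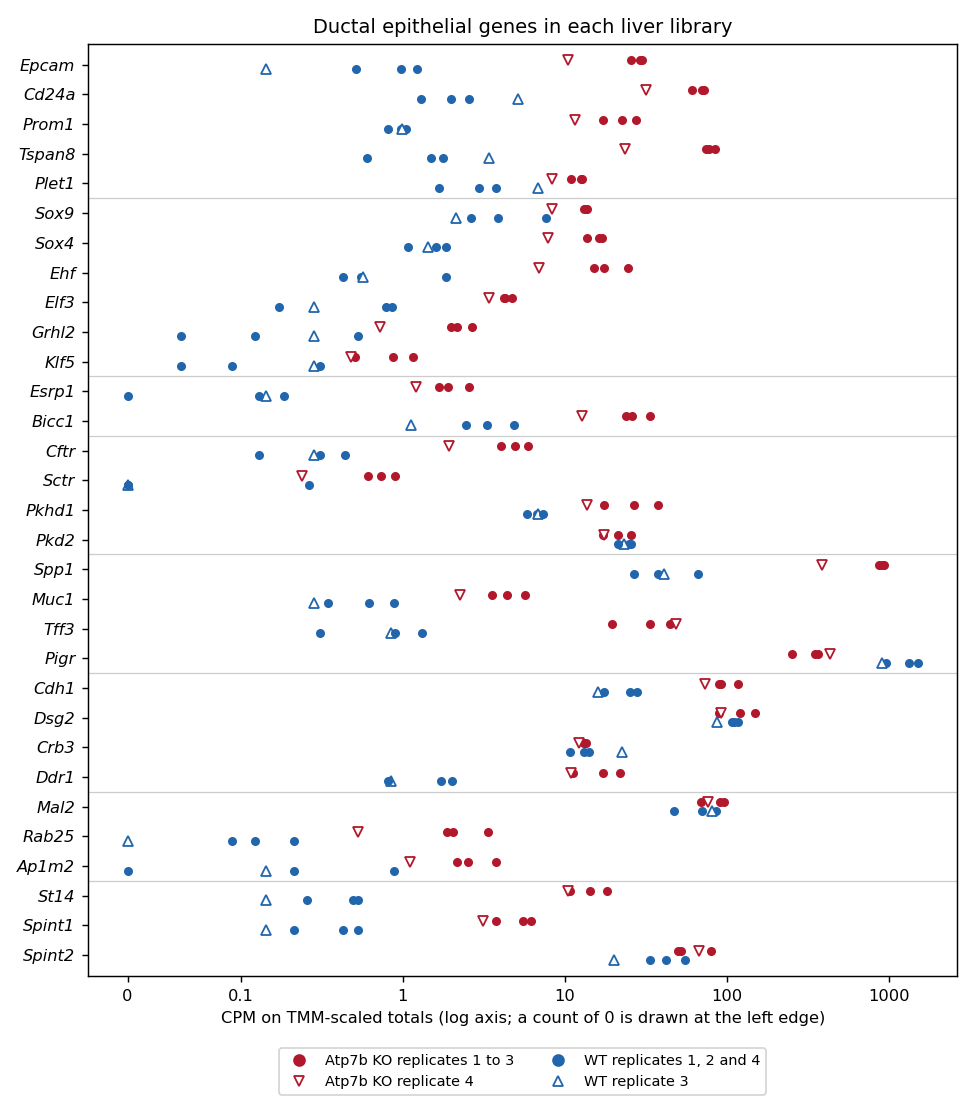
Levels of the 31 genes in each of the 8 libraries, in CPM on a log axis, grouped by role, with Atp7b KO points above WT points for each gene, triangles for Atp7b KO replicate 4 and WT replicate 3, and a count of 0 at the left edge. For 24 genes all 4 Atp7b KO points lie to the right of all 4 WT points, and for Pigr they lie to the left.

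The RefSeq promoter table for build GRCm38.p6 held windows for 18 of the 31 genes, and the 250 bases before each start were searched on both strands for short motifs. The motif CACCTG, an E-box that repressors of the SNAIL and ZEB families bind in epithelial promoters such as that of Cdh1, was present for 12 of the 18 genes (66.7%), against 5252 of 27025 genes with a window (19.4%). It was present for 8 of the 13 genes called higher and for 4 of the 5 others. Those 4 were Pigr, called lower, Spint2 and Crb3, not called, and Rab25, which was outside the test as filtered. The windows of the set were richer in G and C, with a median of 56.6% against 52.4% over all windows, and the part of base composition in the share of E-boxes was not tested. The other motifs stood closer to their share over all genes. GGAAGT, the ETS core bound by factors such as EHF and ELF3, was present for 4 of 18 genes (22.2% against 22.2%). GGAATG, a TEAD site, was present for 5 (27.8% against 14.4%). TGGGAA, an RBPJ site, was present for 6 (33.3% against 24.1%). GGGCGGG, the GC box, was also present for 6 (33.3% against 25.7%), as was CCAAT (33.3% against 37.5%). TATAAA was present for 3 (16.7% against 14.3%) and ACAATGG, a SOX site, for 1 (5.56% against 3.46%). The longer forms AACCGGTT for grainyhead, ACCGGAAGT for ETS and GGGTGTGGC for KLF matched none of the 18, and 0.137%, 0.892% and 1.41% of all genes. GGAAGT lies within ACCGGAAGT, so those 2 searches overlap. A match is a string of letters and not a binding site.

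This motif was picked for display after the shares were seen. Stretches of 5 promoters are shown because each stretch holds 1 or more copies of the E-box. They come from Ap1m2, Epcam and Muc1, called higher, from Rab25, outside the test as filtered, and from Crb3, not called. All are written 5′ to 3′ on the strand of the gene, upstream of a RefSeq start, with CACCTG or its complement CAGGTG in capitals. Ap1m2, a clathrin adaptor subunit of polarised epithelia, has 4 copies in 100 bases at chr9:21312334-21312433 on the minus strand. Rab25, a GTPase of apical recycling, has 2 at chr3:88548280-88548379 on the minus strand. Epcam has 1 at chr17:87635919-87635978 and Muc1 has 1 at chr3:89228956-89229055, both on the plus strand. Both genes have a further copy upstream of the stretch shown, within the 250 bases searched. It begins 187 bases before the start for Epcam and 234 for Muc1. Crb3, an apical polarity protein whose level was not called different, has 3 at chr17:57062071-57062200 on the plus strand.
Ap1m2: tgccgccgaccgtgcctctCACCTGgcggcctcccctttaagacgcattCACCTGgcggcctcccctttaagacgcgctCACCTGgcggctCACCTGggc
Rab25: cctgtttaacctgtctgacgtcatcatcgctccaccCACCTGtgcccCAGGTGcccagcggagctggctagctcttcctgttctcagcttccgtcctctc
Epcam: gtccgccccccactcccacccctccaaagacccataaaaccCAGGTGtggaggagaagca
Muc1: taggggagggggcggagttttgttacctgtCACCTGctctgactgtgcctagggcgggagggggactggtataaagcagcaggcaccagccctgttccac
Crb3: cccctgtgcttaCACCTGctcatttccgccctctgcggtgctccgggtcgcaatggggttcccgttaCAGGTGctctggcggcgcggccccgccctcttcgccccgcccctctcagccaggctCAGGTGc
Zeb1, Zeb2, Snai1 and Snai2, members of the repressor families named above, were not called different, and their part in the results was not tested. Zeb1 read 13.0 ± 2.52 CPM in Atp7b KO and 13.9 ± 3.59 CPM in WT, and Zeb2 read 13.3 ± 1.33 CPM in Atp7b KO and 12.4 ± 3.54 CPM in WT (SD, n = 4 each). Snai1 and Snai2 had log2 fold changes of 0.35 ± 0.44 and -0.50 ± 0.26 with edgeR adjusted p = 0.592 and 0.172.

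All 5 surface markers of ductal and progenitor-like liver cells rose in Atp7b KO. Tspan8, a tetraspanin of glandular epithelia at chr10:115816832-115849893, read 84.4, 74.0, 77.7 and 23.5 CPM in Atp7b KO replicates 1 to 4, against 1.5, 1.78, 3.4 and 0.600 CPM in WT replicates 1 to 4. In Atp7b KO, 3 libraries sat close together and replicate 4 was far below them, at 6.92 times the highest WT library. The log2 fold change was 5.29 ± 0.55, or 39.1-fold, with an edgeR adjusted p = 6.14e-05, and 5.55 without Atp7b KO replicate 4. Epcam, the adhesion molecule that stains bile ducts in liver sections and is absent from mature hepatocytes, was likewise lowest in Atp7b KO replicate 4 among the Atp7b KO libraries, while WT replicate 3, the highest WT library for Tspan8, was the lowest for Epcam. Epcam read 25.5, 29.2, 29.7 and 10.4 CPM in Atp7b KO and 0.968, 1.23, 0.142 and 0.515 CPM in WT, a 31.1-fold difference (log2 4.96 ± 0.48, edgeR adjusted p = 3.9e-05). Cd24a, a small glycosylphosphatidylinositol-anchored mucin of ductal progenitors and of several blood cells, read 71.7, 60.4, 70.4 and 31.8 CPM in Atp7b KO, against 2.55, 1.97, 5.10 and 1.29 CPM in WT. That was 23.1-fold (log2 4.53 ± 0.43, edgeR adjusted p = 3.34e-05). Prom1, which encodes the CD133 antigen of membrane protrusions, was the most even of the 5 in WT: 17.2, 27.5, 22.4 and 11.5 CPM in Atp7b KO stood against 0.968, 1.04, 0.991 and 0.815 CPM in WT. Its fold change was 20.7 (edgeR adjusted p = 6.11e-06). Plet1 moved least. It read 10.9, 12.8, 12.5 and 8.35 CPM in Atp7b KO and 3.78, 1.66, 6.80 and 2.96 CPM in WT, a 3.06-fold difference (edgeR adjusted p = 0.00651), and the lowest Atp7b KO library exceeded the highest WT library by 1.23 times. An antisense gene, Plet1os, shares 185 exonic bases with Plet1 and read 7.94 CPM in Atp7b KO and 2.11 CPM in WT. Whether counting used strand is not given in the sources used here, so reads of the pair cannot be separated.

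Of the 6 transcription factors, 5 rose and Klf5 was outside the test as filtered. The range among them was wide, from 2.98-fold for Sox9 to 19.6-fold for Ehf. Ehf, an ETS factor restricted to lining epithelia, read 17.3, 24.6, 15.2 and 6.91 CPM in Atp7b KO and 1.85, 0.553, 0.566 and 0.429 CPM in WT (log2 4.30 ± 0.52, edgeR adjusted p = 0.000163). Elf3, a related ETS factor, read 4.25, 4.69, 4.22 and 3.41 CPM in Atp7b KO, against 0.792, 0.860, 0.283 and 0.172 CPM in WT, with a 7.86-fold change (edgeR adjusted p = 0.000417). Atp7b KO replicate 4 came nearest to the other 3 libraries of its group for Elf3 among the 22 higher genes, at 0.777 of their mean. Its antisense partner Gm26642 was more abundant and level, at 14.2 CPM in Atp7b KO and 14.3 CPM in WT. Sox9, the factor that first marks the ductal plate, read 13.5, 13.7, 13.1 and 8.35 CPM in Atp7b KO and 7.65, 3.87, 2.12 and 2.62 CPM in WT. The groups came within 1.09 times of each other at their nearest libraries, and the log2 fold change was 1.57 ± 0.36 (edgeR adjusted p = 0.00788). Sox4, which acts with Sox9 in duct formation, had a larger change: 16.3, 16.9, 13.7 and 7.87 CPM in Atp7b KO against 1.85, 1.60, 1.42 and 1.07 CPM in WT, or 9.33-fold (edgeR adjusted p = 3.18e-05). This value is uncertain in its source, because a lincRNA on the other strand, Gm26735, shares 2616 bases with Sox4 and read 12.1 CPM in Atp7b KO and 1.29 CPM in WT. Grhl2, a grainyhead factor that maintains epithelial junctions, was low throughout, at 2.16, 2.66, 1.98 and 0.719 CPM in Atp7b KO and 0.528, 0.123, 0.283 and 0.0429 CPM in WT. It was called 9.01-fold higher (edgeR adjusted p = 0.00353) and 11 WT counts in all lay behind that ratio. Klf5, a zinc-finger factor of proliferating epithelia, had 60 counts in Atp7b KO and 9 in WT. The ratio of its totals-adjusted counts was 4.96, with an exact interval at 95% confidence of 2.44 to 11.4 that covers counting error only. With no filter on low counts edgeR called it higher (log2 2.20 ± 0.58, adjusted p = 0.00466).

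Both RNA-binding proteins rose. Bicc1, a regulator of translation whose loss produces cystic ducts and kidneys in mice, read 23.8, 33.5, 26.1 and 12.8 CPM in Atp7b KO, against 4.84, 3.32, 1.13 and 2.44 CPM in WT. The fold change was 8.02 (log2 3.0 ± 0.40, edgeR adjusted p = 0.000285). An antisense gene within it, 4930533K18Rik, read 5.88 CPM in Atp7b KO and 0.586 CPM in WT and shares 237 exonic bases. Esrp1, the splicing regulator that sets epithelial exon choice, read 1.90, 2.57, 1.68 and 1.20 CPM in Atp7b KO and was nearly silent in WT at 0, 0.184, 0.142 and 0.129 CPM, 7 counts in all. It was called 14.6-fold higher (edgeR adjusted p = 0.000224). Its paralog Esrp2, the form that hepatocytes use, stood at 61.8 ± 11 CPM in Atp7b KO and 111 ± 27.1 CPM in WT (SD, n = 4 each), a log2 fold change of -0.85 ± 0.22 with an edgeR adjusted p = 0.0134. That call was lost with library totals only, at -0.46 and an adjusted p = 0.197.

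**Figure D2:**
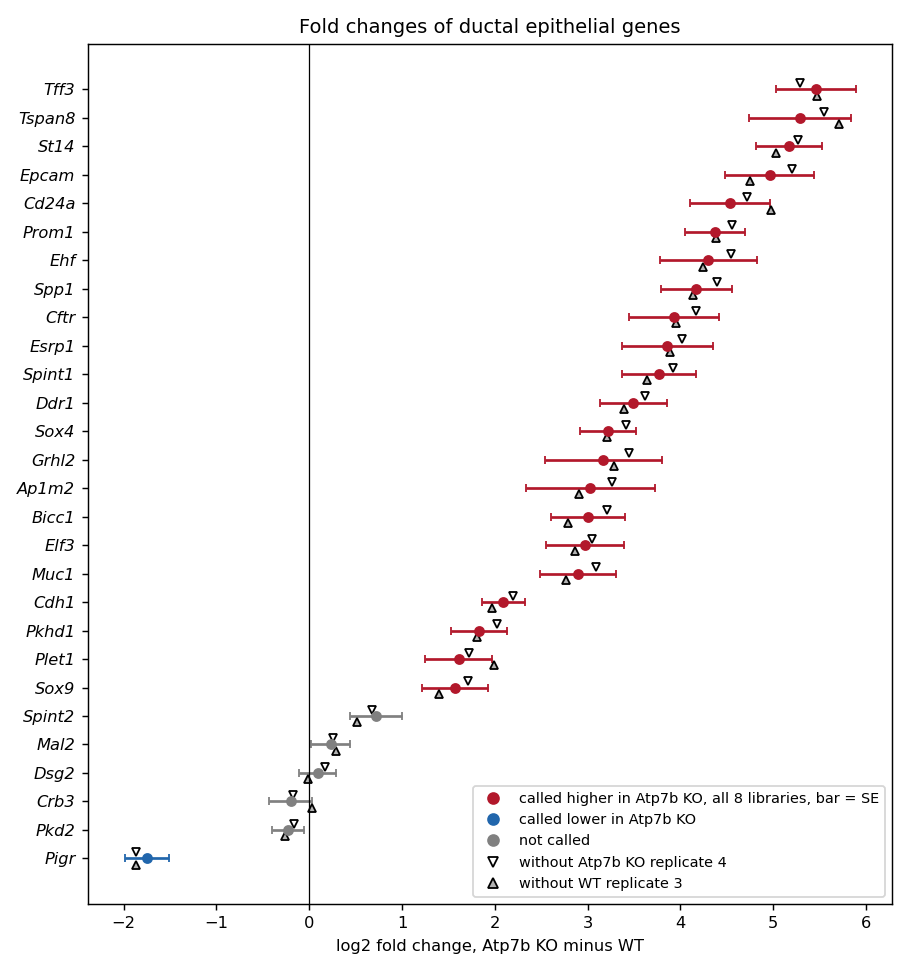
Log2 fold change of Atp7b KO over WT (horizontal axis) for the 28 genes tested, ordered by size, with circles for the fit on all 8 libraries, bars for its standard error and triangles for the fits without Atp7b KO replicate 4 or without WT replicate 3. Tff3, Tspan8 and St14 lie past 5, Pkd2, Crb3, Dsg2 and Mal2 lie between -0.23 and 0.23, and Pigr lies at -1.75.

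Among the genes of ductal secretion and the cilium, Cftr and Pkhd1 rose and Pkd2 was not called. Cftr, the apical chloride channel, read 4.95, 5.93, 4.01 and 1.92 CPM in Atp7b KO, against 0.440, 0.307, 0.283 and 0.129 CPM in WT. Its fold change was 15.3 (log2 3.93 ± 0.48, edgeR adjusted p = 0.000162). Sctr, the secretin receptor that lies upstream of the channel in cholangiocytes, was close to the limit of these libraries: 0.889, 0.735, 0.610 and 0.240 CPM in Atp7b KO stood against 0.264 CPM in WT replicate 1 and 0 in the other 3 WT libraries. These are 47 counts in Atp7b KO and 3 in WT, a ratio of 11.6 with an exact counting interval of 3.75 to 58.5, and the groups overlapped. With no filter on low counts edgeR called it higher (adjusted p = 0.00123), and without WT replicate 4 it was not called (adjusted p = 0.059). Pkhd1, the ciliary protein fibrocystin whose loss causes congenital hepatic fibrosis, read 26.5, 37.7, 17.3 and 13.7 CPM in Atp7b KO and an even 5.81, 6.70, 6.80 and 7.37 CPM in WT. It was 3.56-fold higher (edgeR adjusted p = 0.00114). Pkd2, the polycystin-2 channel, overlapped between groups, at 21.1, 25.4, 17.2 and 17.4 CPM in Atp7b KO and 24.9, 25.7, 23.2 and 21.4 CPM in WT. Its log2 fold change was -0.23 ± 0.17 (edgeR adjusted p = 0.355), with the sign turned to 0.19 by library totals only. Pkd2 begins 18.4 kb downstream of Spp1 on chromosome 5.

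The secreted and mucosal genes held the gene with the highest mean level in Atp7b KO, Spp1, and the 1 gene that fell, Pigr, which had the highest mean level in WT. Spp1, which encodes osteopontin, a matrix and cytokine-like protein secreted by ductal cells and also by activated macrophages, lies at chr5:104435118-104441050. It read 907, 931, 864 and 386 CPM in Atp7b KO replicates 1 to 4, against 66.3, 37.7, 40.9 and 26.6 CPM in WT replicates 1 to 4. The means of 772 ± 259 CPM in Atp7b KO and 42.9 ± 16.8 CPM in WT (SD, n = 4 each) gave an 18.0-fold change (log2 4.17 ± 0.38, edgeR adjusted p = 2.48e-05), and 4.39 on the log2 scale without Atp7b KO replicate 4. Tff3, a trefoil peptide of mucus, had the largest fold change of the set and was the 1 gene called higher whose level was highest in Atp7b KO replicate 4. It read 19.4, 33.6, 44.7 and 48.4 CPM in Atp7b KO and 1.32, 0.307, 0.849 and 0.900 CPM in WT. The fold change was 44.1 (log2 5.46 ± 0.43, edgeR adjusted p = 9.14e-06). Muc1, a transmembrane mucin of apical surfaces, read 3.56, 5.70, 4.42 and 2.25 CPM in Atp7b KO and 0.880, 0.614, 0.283 and 0.343 CPM in WT, or 7.44-fold (edgeR adjusted p = 0.000426). Pigr, the polymeric immunoglobulin receptor that carries IgA across epithelia into bile, went the other way. Rodent hepatocytes make this receptor as well as ducts. Pigr read 350.1, 362, 252 and 430 CPM in Atp7b KO, against 959, 1319, 909 and 1507 CPM in WT, and the groups did not overlap. It was 3.37-fold lower (log2 -1.75 ± 0.24, edgeR adjusted p = 0.000359), and -1.34 with an adjusted p = 0.00174 on library totals only.

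Of the 4 adhesion and polarity genes, Cdh1 and Ddr1 rose, and Dsg2 and Crb3, the ones with the higher WT levels per exon length, were not called. Cdh1, E-cadherin, which periportal hepatocytes and ducts share, was 4.27-fold higher, with 91.7, 117, 89.2 and 73.0 CPM in Atp7b KO and 27.9, 25.1, 16.1 and 17.5 CPM in WT (log2 2.09 ± 0.23, edgeR adjusted p = 8.9e-05). Ddr1, a collagen-binding receptor tyrosine kinase of epithelia, was 11.2-fold higher, with 11.2, 17.1, 21.8 and 10.9 CPM in Atp7b KO and 2.02, 1.72, 0.849 and 0.815 CPM in WT (edgeR adjusted p = 6.31e-05). The groups did not overlap for either gene. Dsg2, a desmosomal cadherin, read 120, 149, 88.9 and 91.6 CPM in Atp7b KO and 108, 110.2, 87.3 and 117 CPM in WT. Its log2 fold change of 0.09 ± 0.20 (edgeR adjusted p = 0.780) changed sign with the libraries included, at -0.08 without Atp7b KO replicate 2 and -0.01 without WT replicate 3. Crb3 read 13.5, 13.1, 13.2 and 12.2 CPM in Atp7b KO, the narrowest spread of any of the 31 genes in that group, against 14.1, 13.1, 22.5 and 10.8 CPM in WT. Its log2 fold change was -0.20 ± 0.23 (edgeR adjusted p = 0.538), and 0.03 without WT replicate 3, the library with the high value.

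The vesicle-sorting genes ranged from nearly absent to abundant in WT. Ap1m2 read 2.16, 3.77, 2.54 and 1.10 CPM in Atp7b KO and 0.880, 0, 0.142 and 0.214 CPM in WT, and was called 8.17-fold higher (log2 3.03 ± 0.70, edgeR adjusted p = 0.00759). Rab25 read 2.03, 3.35, 1.88 and 0.528 CPM in Atp7b KO, against 0.088, 0.123, 0 and 0.214 CPM in WT. With 153 counts in Atp7b KO and 8 in WT, the ratio was 14.2 with an exact counting interval of 7.04 to 33.5. It was outside the test as filtered, and with no filter edgeR called it higher (log2 3.80 ± 0.56, adjusted p = 8.04e-07). Mal2, which hepatocytes need for transcytosis to the bile canaliculus, was abundant and overlapped between groups, at 96.4, 90.0, 69.5 and 76.7 CPM in Atp7b KO and 85.3, 70.2, 80.6 and 47.3 CPM in WT (log2 0.23 ± 0.21, edgeR adjusted p = 0.444).

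The membrane protease St14 and its inhibitor Spint1 rose together. St14, the serine protease matriptase, read 10.7, 14.2, 18.3 and 10.5 CPM in Atp7b KO, against 0.528, 0.492, 0.142 and 0.257 CPM in WT. Its lowest Atp7b KO library was 19.8 times its highest WT library, the widest such gap among the 31 genes, and the fold change was 36.1 (log2 5.17 ± 0.36, edgeR adjusted p = 4.55e-06). Spint1, the Kunitz inhibitor that matriptase binds, read 3.75, 6.16, 5.49 and 3.12 CPM in Atp7b KO and 0.528, 0.430, 0.142 and 0.214 CPM in WT, or 13.7-fold (edgeR adjusted p = 6.7e-05). Spint2, the second Kunitz inhibitor, read 52.3, 49.9, 79.5 and 66.7 CPM in Atp7b KO and 54.8, 41.9, 20.2 and 33.4 CPM in WT. The groups overlapped and the log2 fold change of 0.72 ± 0.28 missed the threshold (edgeR adjusted p = 0.0799). It passed under 5 of the alternatives, among them library totals only (1.10, adjusted p = 0.0269) and without WT replicate 1 (0.94, adjusted p = 0.0304).

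Levels can be compared between genes once divided by exon length. In Atp7b KO the mean per kilobase was highest for Spp1, at 468 CPM per kb, followed by Pigr at 86.6, Tff3 at 74.1 and Tspan8 at 38.1 CPM per kb. In WT the order began with Pigr at 292 CPM per kb, then Spp1 at 26.0, Mal2 at 24.0, Dsg2 at 12.8, Crb3 at 9.66 and Spint2 at 8.25 CPM per kb. The 6 tested genes that were not called higher, Pigr, Mal2, Dsg2, Crb3, Spint2 and Pkd2, ranked 1, 3, 4, 5, 6 and 8 by WT level. Ranks 2 and 7 in WT were held by Spp1 and by Cdh1, which stood at 4.73 CPM per kb in WT. By Atp7b KO level the same 6 genes, in that order, ranked 2, 5, 8, 11, 8 and 19. The WT level is also the base of the fold change, so its order and the calls are not independent. The lowest levels in Atp7b KO were those of Klf5 at 0.144 and Grhl2 at 0.218 CPM per kb. Summed over the 31 genes, the libraries read 2026, 2169, 1884 and 1373 CPM in Atp7b KO and 1381, 1672, 1232 and 1805 CPM in WT, and the groups overlapped. Without Pigr and Spp1 the sums were 769, 876, 768 and 557 CPM in Atp7b KO and 355, 315, 282 and 271 CPM in WT.

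Atp7b KO replicate 4 had the lowest level of its group for 25 of the 31 genes (80.6%) and for 21 of the 22 called higher (95.5%), with Tff3 the exception. The same library was lowest for 22.5% of all genes tested, for 45.4% of all genes called higher and for 52.4% of those called higher with a log2 fold change over 2. The median log2 difference between it and the other 3 Atp7b KO libraries was -0.94 over the 22 genes, against -0.20 over all genes called higher and -0.01 over all genes tested. The shortfall was uneven: replicate 4 stood at 0.218 of the mean of the other 3 for Rab25, 0.299 for Tspan8, 0.362 for Ehf, 0.368 for Epcam and 0.428 for Spp1. It stood at 0.726 for St14, 0.736 for Cdh1 and 0.777 for Elf3, and above that mean for Spint2 at 1.10, Pigr at 1.34 and Tff3 at 1.49. Atp7b KO replicate 2 was the highest of its group for 20 of the 31 genes (64.5%), against 28.0% of all genes tested. Without replicate 4, 25 of the 28 log2 fold changes were larger, all 22 calls held, and Sctr (3.61, edgeR adjusted p = 0.0111) and Rab25 (4.11, adjusted p = 0.000314) entered the test and were called higher. That made 24 genes called higher, where 16.4% of all genes were, with a median of 3.42. Pigr remained the 1 called lower, where 8.80% of all genes were.

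**Figure D3:**
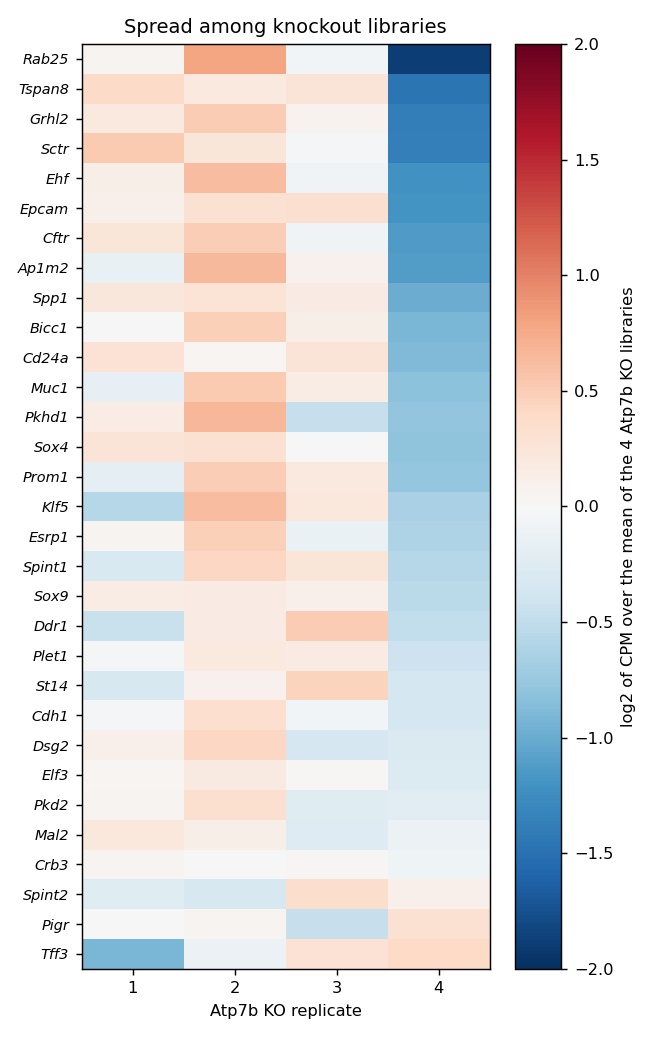
Heat map of log2 CPM over the mean of the 4 Atp7b KO libraries, with the 31 genes in rows, ordered by the ratio of replicate 4 to the other 3, and the replicates in columns. Replicate 4 is lowest for 25 of the 31 genes, and Pigr and Tff3, in the bottom rows, are highest in it.

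In WT the spread had another order. WT replicate 1 was the highest of its group for 17 of the 31 genes (54.8%), against 25.9% of all genes tested. Its median log2 difference from the other 3 was 0.71 over the 31 genes, against 0.00 over all genes tested. WT replicate 4 was lowest for 14 (45.2%) and WT replicate 3 for 11 (35.5%), against 16.5% and 41.1% of all genes tested. Without WT replicate 3, 24 genes of the set were called higher and 1 lower, where 26.0% of all genes were called higher and 23.4% lower. With WT replicate 3 and Atp7b KO replicate 4 both left out, 24 were called higher and 1 lower, where 24.6% of all genes were called higher and 21.8% lower. The library names form series by their first digits, and what those digits stand for is not given in the sources used here. Within the series that holds Atp7b KO replicate 3 and WT replicate 3, log2 CPM was higher in Atp7b KO for 24 of the 28 tested genes, with a median difference of 3.36. Within the series that holds Atp7b KO replicate 4 and WT replicates 2 and 4, it was higher for 25 of 28, with a median of 2.38. The share of all genes higher within each series was not computed. The former series sets 1 library against 1, and its WT library is the one that stood apart. Atp7b KO replicates 1 and 2 share a series with no WT library, and WT replicate 1 is alone in its own, so these give no within-series value. With the series as a covariate, edgeR called 23 of the 28 higher and 1 lower, where 12.8% of all genes were called higher and 6.85% lower.

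Markers of other liver cells moved alongside the ductal genes, and their part in the results was not tested. Over all genes tested, 17.6% were called higher and 12.5% lower. With library totals only these shares were 30.4% and 4.06%, and with the name series 12.8% and 6.85%. Without WT replicate 3 they were 26.0% and 23.4%, so counts of markers shift between fits along with those of all genes. Of 12 hepatocyte markers, 6 were called lower and none higher (edgeR), with a summed level of 48619 to 69391 CPM in Atp7b KO and 73456 to 130751 CPM in WT. Alb made up most of that sum, at 32774 to 50175 CPM in Atp7b KO and 45716 to 92512 CPM in WT. Its groups overlapped and it was not called (edgeR adjusted p = 0.117). Among the 6 called lower, Cyp2e1 read 1507 ± 312 CPM in Atp7b KO and 4917 ± 1690 CPM in WT (SD, n = 4 each). The lower calls of Apoa1, Trf and Hnf4a were lost with library totals only, at adjusted p = 0.375, 0.173 and 0.455, and Apoa1 and Hnf4a were also lost in 3 and 5 of 8 fits that left out 1 library. The 6 lower calls became 2 with the name series as a covariate and 9 without WT replicate 3. Of 12 stellate cell and fibroblast markers, 7 were called higher, led by Col3a1 at 121 ± 34.5 CPM in Atp7b KO and 27.2 ± 9.06 CPM in WT, and the sums were 596 to 845 CPM in Atp7b KO and 256 to 465 CPM in WT. With the name series as a covariate 3 stellate markers were called, as Col1a1, Tagln, Pdgfra and Dcn were lost at adjusted p = 0.103, 0.333, 0.0553 and 0.0570, and Tagln was also lost in 5 of 8 fits that left out 1 library. Of 12 macrophage markers, Marco, Trem2 and Gpnmb were called higher, and 8 were with library totals only, 6 with the name series and 7 without WT replicate 3. Those added without WT replicate 3 were Lyz2 (log2 2.52, edgeR adjusted p = 7.84e-06), C1qa (1.17, 0.00211), Vsig4 (1.25, 0.00761) and Adgre1 (1.16, 0.0271). The macrophage sum was 395, 547, 865 and 1024 CPM in Atp7b KO replicates 1 to 4, against 178, 309, 625 and 325 CPM in WT replicates 1 to 4. The sum was highest in Atp7b KO replicate 4, the library in which Spp1 was lowest of its group at 386 CPM. The 3 markers called higher did not share an order among the Atp7b KO libraries. Trem2, a receptor of activated macrophages, read 3.17, 3.81, 5.38 and 3.12 CPM in Atp7b KO against 0.792, 0.430, 0 and 0.30 CPM in WT, with Atp7b KO replicates 1 and 4 nearly level. In Atp7b KO replicates 1 to 4, Gpnmb read 1.59, 1.47, 2.39 and 1.97 CPM and Marco 13.0, 36.4, 60.7 and 121 CPM. Of 9 lymphocyte markers tested, Cd79b, Cd3g, Cd8a and Nkg7 were called higher, with sums of 13.5 to 19.9 CPM in Atp7b KO and 6.60 to 12 CPM in WT. The Cd79b call was lost in 2 of 8 fits that left out 1 library, without Atp7b KO replicate 3 and without WT replicate 4, at adjusted p = 0.0561 and 0.0604. The Nkg7 call was lost with the name series, at 0.0648, and 6 markers were called without WT replicate 3.

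**Figure D4:**
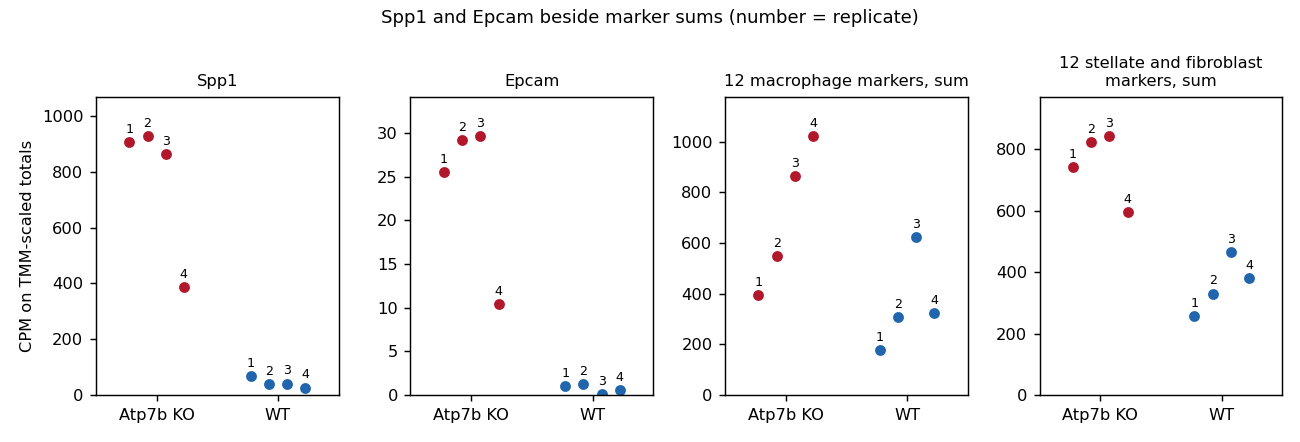
Level of Spp1, level of Epcam, summed level of 12 macrophage markers and summed level of 12 stellate cell and fibroblast markers in each library, in CPM, with 1 point a library and its replicate number above it. Atp7b KO replicate 4 is the lowest of its group for Spp1, Epcam and the stellate sum and the highest for the macrophage sum, at 1024 CPM.

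Cells that also express Cd24a or epithelial genes were checked by their own markers. Their calls stand beside 17.6% of all genes tested called higher and 12.5% called lower. The neutrophil genes S100a8 and S100a9 were called higher at log2 fold changes of 2.35 ± 0.51 and 2.20 ± 0.53, with neutrophil sums of 7.43 to 18.1 CPM in Atp7b KO and 2.62 to 6.23 CPM in WT, and Ly6g was at 0 in all WT libraries. The erythroid sum overlapped, at 529 to 1455 CPM in Atp7b KO and 309 to 774 CPM in WT. Of 11 exocrine pancreas markers, none of the 2 tested was called, 1 was without WT replicate 3, Cpa1 and Amy2a5 were at 0 in all 8 libraries, Prss2, Cela3b, Pnlip and Ctrb1 were at 0 in WT, and the summed level was 32.5 to 49.8 CPM in Atp7b KO and 27.4 to 69.9 CPM in WT, most of it Cela1. For the intestine, the summed level of 136 to 244 CPM in Atp7b KO and 139 to 509 CPM in WT was mostly Fabp2. Cdx1, Cdx2, Cdh17, Sis and Isx were at 0 in all WT libraries. Cdx2 averaged 0.0508 CPM in Atp7b KO, and Cdh17, the liver-intestine cadherin, read 0.127, 0.689, 1.57 and 1.39 CPM there, or 77 counts in all, so every Atp7b KO library lay above every WT library. Vil1, which ducts also express, rose to 2.77 ± 1.33 CPM in Atp7b KO against 0.296 ± 0.1 CPM in WT, and Lgals4 was called lower (log2 -1.21 ± 0.32). The Lgals4 call was lost with library totals only, at adjusted p = 0.116, with the name series, at 0.171, and without Atp7b KO replicate 2, at 0.0534. Of 6 mesothelial markers tested, Gpm6a alone was called higher, and the sums were 19.1 to 24.8 CPM in Atp7b KO and 11.9 to 17.2 CPM in WT. Of 10 endothelial markers, Tek was called higher and Kdr lower, and the sums were 106 to 190.3 CPM in Atp7b KO and 142 to 245 CPM in WT. The Kdr call was lost in 5 of 8 fits that left out 1 library, at adjusted p = 0.0758 to 0.0991. Without WT replicate 3 there were 5 lower calls, where 23.4% of all genes were called lower.

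The label of the set was checked with 9 cholangiocyte-defining markers, 6 of which belong to the set. Of these, edgeR called 7 higher: Krt7, Krt19, Epcam, Sox9, Spp1, Cftr and Pkhd1. All 9 were detected in Atp7b KO and in at least 1 WT library, so RNA of these markers was present in both groups. The sum was 1010, 1061, 960 and 439 CPM in Atp7b KO, against 101, 65.4, 56.1 and 49.3 CPM in WT, and Spp1 made up most of it.

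Other ductal markers and transporters outside the set were mixed in the same way. Of 21 listed, 19 were tested, 11 were called higher and Onecut2 was called lower, where 17.6% and 12.5% of all genes tested were. The median log2 fold change was 1.25. Cldn4, a tight-junction claudin of ducts, had the lowest p of the list, at 2.67 ± 1.17 CPM in Atp7b KO against 0.0107 ± 0.0214 CPM in WT (SD, n = 4 each, edgeR adjusted p = 6.29e-05). Krt19, the keratin that defines ducts in histology, read 11.5 ± 6.71 CPM in Atp7b KO and 1.03 ± 0.170 CPM in WT (log2 3.46 ± 0.46, adjusted p = 0.000272). Krt8, a keratin of hepatocytes and ducts alike, read 675 ± 90.0 CPM in Atp7b KO and 262 ± 23.2 CPM in WT (adjusted p = 0.000233). Slc5a1, an apical glucose carrier that reabsorbs glucose from bile, had a log2 fold change of 3.35 ± 0.43 (adjusted p = 0.000233). Several genes of ductal water and bicarbonate transport were not called: Aqp1, a water channel, at 0.06 ± 0.31, Slc4a2, the chloride and bicarbonate exchanger, at -0.21 ± 0.25, and Slc10a2, the bile acid carrier, at -0.55 ± 0.44. Both of these values changed with WT replicate 3 left out, where Slc4a2 was called lower (-0.43, edgeR adjusted p = 0.0188), and Slc10a2, at 163 CPM in that library, turned to 0.11 (0.706). The call of Onecut2 (log2 -0.60 ± 0.19, adjusted p = 0.0333) was lost in 5 of 8 fits that left out 1 library, at adjusted p = 0.0623 to 0.0964, and with library totals only, at 0.510.

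**Figure D5:**
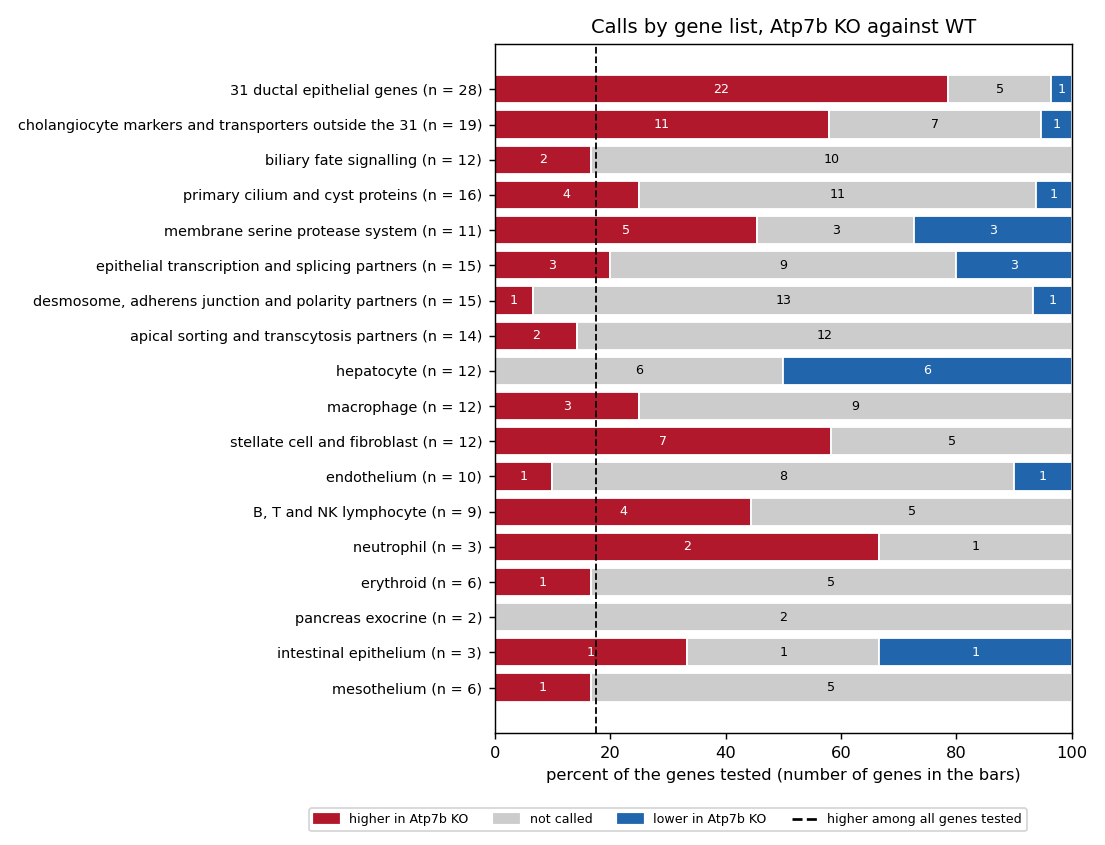
Percent of the tested genes of each list that were called higher, not called and called lower in Atp7b KO against WT, with the number of genes in each bar and a dashed line at the 17.6% called higher among all genes tested. The 31 ductal genes hold 22 higher and 1 lower of 28 tested, the cholangiocyte markers outside the set 11 and 1 of 19, and the junction and polarity partners 1 and 1 of 15.

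The partners of the membrane protease group moved in both directions. Of 11 tested, 5 were called higher and 3 lower, where 17.6% and 12.5% of all genes tested were. Tmprss4, a transmembrane serine protease, read 75.4 ± 13.2 CPM in Atp7b KO and 0.610 ± 0.287 CPM in WT (SD, n = 4 each, log2 6.80 ± 0.31, edgeR adjusted p = 6.76e-07), a larger change than that of any of the 31 genes. Tmprss2 read 26.7 ± 5.72 CPM in Atp7b KO and 3.39 ± 0.278 CPM in WT (adjusted p = 4.98e-06). F2rl1, the protease-activated receptor that matriptase can cleave, and Serpina5, a secreted protease inhibitor, had log2 fold changes of 3.50 ± 0.40 and 3.56 ± 0.40 (adjusted p = 0.000103 and 9.73e-05). Prss8, the protease prostasin that acts with matriptase, was also called higher, at 1.38 ± 0.23. The 3 called lower are expressed by hepatocytes: Hgfac, the activator of hepatocyte growth factor, at -1.54 ± 0.26, Tmprss6 at -0.95 ± 0.17 and the growth factor's receptor Met at -0.83 ± 0.20. On library totals only, Met was no longer called (adjusted p = 0.113). Without WT replicate 3 the lower calls were 5, where 23.4% of all genes were called lower.

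Most signalling genes of biliary fate were not called. Of 12 tested, 2 were called higher, where 17.6% of all genes tested were, and 6 with library totals only, where 30.4% were. Without WT replicate 3, 6 of 14 were called higher, where 26.0% of all genes were. Tgfb2, a TGF-beta ligand, rose to 2.63 ± 0.801 CPM in Atp7b KO against 0.475 ± 0.358 CPM in WT (SD, n = 4 each, edgeR adjusted p = 0.00221), and Ctgf, a matrix protein and YAP target, was called higher at a log2 fold change of 0.94 ± 0.29. The Ctgf call (adjusted p = 0.0343) was lost in 5 of 8 fits that left out 1 library, at 0.0763 to 0.103, and with the name series, at 0.306. Jag1, the Notch ligand of portal mesenchyme, at 0.53 ± 0.42, Notch2 at -0.12 ± 0.20 and Yap1 at -0.14 ± 0.21 were not called. Among 16 cilium and cyst genes, Bbs4, Kif3a, Dzip1l and Anks6 were called higher, at 1.65 ± 0.20, 1.08 ± 0.22, 1.75 ± 0.39 and 1.79 ± 0.50, and the median was 0.10. Pkd1, the partner of Pkd2, was called lower at -0.80 ± 0.25 (adjusted p = 0.0328), a call lost in 6 of 8 fits that left out 1 library and with library totals only (0.332). Anks6 was lost in 2 of those fits, at 0.0623 and 0.0660, and Kif3a and Dzip1l with the name series, at 0.0680 and 0.152. Without WT replicate 3, 5 genes of this list were called higher and 3 lower, where 26.0% and 23.4% of all genes were. In the main fit 4 of the 16 were called higher, where 17.6% of all genes tested were.

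Partners of the transcription and splicing genes split evenly. Over all genes tested, 17.6% were called higher and 12.5% lower. Of 15 tested, Grhl1, Ovol1 and Klf6 were called higher, at log2 fold changes of 2.27 ± 0.39, 1.53 ± 0.33 and 1.44 ± 0.30. Esrp2, Rbm47 and Foxa1 were called lower, and all of those lower calls were lost with library totals only, at adjusted p = 0.197, 0.184 and 0.0858. The junction and polarity partners stood near 0, with a median of -0.02 over 15 tested. Pard6b, a polarity scaffold, was called higher (log2 1.41 ± 0.23, edgeR adjusted p = 0.00111), and Dsc2, the desmosomal partner of Dsg2, lower at -0.87 ± 0.23 (adjusted p = 0.0170), a call lost in 3 of 8 fits that left out 1 library, at 0.0521 to 0.0543, and with library totals only, at 0.166. Without WT replicate 3, 2 junction genes were called higher and 4 lower, where 26.0% and 23.4% of all genes were. Among 14 partners in apical sorting, 2 were called higher, and 6 with library totals only, where 30.4% of all genes were. Without WT replicate 3, 3 of these partners were called higher and 2 lower. Mal, the paralog of Mal2 found in other polarised epithelia, rose to 3.94 ± 2.12 CPM in Atp7b KO against 0.528 ± 0.196 CPM in WT (SD, n = 4 each, adjusted p = 0.00129), and Exoc4, an exocyst subunit, was called higher at 1.65 ± 0.25. The ubiquitous adaptor subunit Ap1m1, the paralog of Ap1m2, was not called, at 26.9 ± 0.861 CPM in Atp7b KO and 24.5 ± 8.82 CPM in WT. Esrp1, Ap1m2 and Mal were thus called higher, whereas of their paralogs Esrp2 was called lower and Ap1m1 and Mal2 were not called. Not all related genes parted in this way: Grhl1 and Grhl2 were both called higher, as were Ehf and Elf3. These pairs were picked after their values were seen. The differences between paralogs were not tested.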

How the data were processed

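Total RNA of 8 liver libraries, 4 Atp7b KO and 4 WT, was measured by RNA sequencing. The authors deposited raw read counts per gene for 54232 genes, per the file headers, whole numbers with no normalization. Per the submitters' processing notes, FastQC, cutadapt and STAR were used with the mm10 build. Neither the counting program nor its strand setting nor the annotation release was named there, so reads shared by overlapping genes on either strand stay mixed. Coordinates and exon lengths come from GENCODE M21 on mm10, where 99.9% of identifiers matched, and promoter sequences from RefSeq on GRCm38.p6. No 2 libraries agreed within sampling noise, the lowest chi-square per gene being 20.9.

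Genes were filtered with filterByExpr, scaled by TMM and tested with edgeR's quasi-likelihood test on all 8 libraries with no covariate (R 4.3.3, edgeR 4.0.16), with Benjamini-Hochberg adjustment over 15811 genes and a threshold of 0.05. The standard error is the log2 fold change divided by the root of F. Log2 CPM used a prior count of 2. Tested on simulated data made from these libraries and 15567 genes, the fit called 56 of the 62 genes given a 4-fold change. At 2-fold it called 15 of 67, at 1.5-fold 0 of 67, and 3 of its 74 calls were false. Alternatives were DESeq2 1.42.0, limma-voom (limma 3.58.1), 4 other scalings, 2 other filters, a threshold of 0.01, library-name series as a covariate, and libraries left out. Within-series differences were added after seeing the data. Counting intervals are exact at 95% confidence.

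The members and lists were chosen with earlier results of these data known. Named genes are Atp7b, all members and, of each list, up to 4 per direction with the lowest p among those called, plus defining markers at 0. Other list genes named, such as those not called, and the promoters shown were chosen after their values were seen. Some genes and motifs of these lists are not reported here.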

Additional observations from a re-analysis of the deposited data

Results flagged for a closer look

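For each of the 31 genes, the 4 libraries of each genotype were searched for 1 library set apart by a wide gap from the other 3, relative to the group's range. Of 62 groups looked at, 5 held such a library. The rule marks about 1 group in 20 for independent values with a normal spread. Genes read in the same libraries need not meet that, so the 5 are not weighed against chance. Tspan8 read 23.5 CPM in Atp7b KO replicate 4, below the other 3 Atp7b KO libraries at 74.0 to 84.4 CPM. Spp1 read 386 CPM in the same library, below 864 to 931 CPM in the other 3. Sox9 read 8.35 CPM there, below 13.1 to 13.7 CPM. All 3 of these gaps lie on the low side of Atp7b KO replicate 4. In WT, replicate 1 was the library set apart: Ehf read 1.85 CPM in it, above 0.429 to 0.566 CPM in the other 3 WT libraries, and Sctr read 0.264 CPM, which is 3 counts, where the other 3 were at 0. A group with counts in 1 library only always meets the rule, as for Sctr here.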

How the results depend on the processing

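All 22 genes called higher kept their call in 18 of 19 alternatives, and with a filter of at least 1 CPM in 4 libraries 21 were tested and called, Grhl2 being out of the fit. The number called higher was 21 to 26 over all alternatives, and 22 to 25 in the fits that left out 1 library; Pigr was the 1 called lower in each. The median log2 fold change was 3.51 with library totals only, 3.45 with totals without the 10 most abundant genes, 3.43 without WT replicate 3 and Atp7b KO replicate 4, and 2.86 to 3.61 in the fits that left out 1 library. The number of all genes called was 2872 at a threshold of 0.01, 3101 with the name series as a covariate, 7456 without WT replicate 3 and Atp7b KO replicate 4, and 3644 to 8104 when 1 library was left out, the highest without WT replicate 3. The cause of the higher counts without that library was not tested. Pkd2 turned to 0.19 with library totals only and 0.13 with totals without the 10 most abundant genes. Crb3 turned to 0.25 and 0.19 under the same scalings, to 0.03 without WT replicate 3 and to 0.06 with Atp7b KO replicate 4 out as well, and ranged from -0.34 to 0.03 when 1 library was left out. Dsg2 turned to -0.17 with the name series, -0.08 without Atp7b KO replicate 2 and -0.01 without WT replicate 3, within -0.08 to 0.19 when 1 library was left out. None of these 3 was called in any fit. Mal2 was called higher with library totals only (0.65, edgeR adjusted p = 0.0405). Depth limits the genes with under 20 WT counts, such as Klf5, Sctr and Rab25. No paired analysis was possible because the replicate numbers only follow accession order; the name series, fitted as a covariate in their place, kept all 22 higher calls and the lower call of Pigr.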
